A study of Homo sapiens with 6 samples.

Results

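The ERK pathway feedback genes are transcripts that cells raise when ERK signaling is active and whose products mostly act back on the pathway. They were picked by name as DUSP4, DUSP5, DUSP6, SPRY2, SPRY4, SPRED1, SPRED2, ETV4, ETV5 and PHLDA1, and all 10 were found among the 25528 gene symbols measured. All 10 were also among the 11672 genes that had a mean of at least 1 TPM (transcripts per 1000000 transcripts, a level corrected for gene length) and were tested. The cells sequenced were DU-145/tet-XISTshRNA, a human castration-resistant prostate cancer line that carries a doxycycline (DOX)-inducible shRNA against the long non-coding RNA XIST. Cells grown in RPMI1640 medium with serum and selected with puromycin or geneticin were treated for 7 days with 0.1% DMSO as vehicle (3 samples) or with 500 ng/ml DOX (3 samples), so that both groups carry the vector and only one received DOX. No DOX-treated cells with a control shRNA were among these 6 samples, so an effect of the shRNA and an effect of DOX itself cannot be told apart. The RNA targeted by the shRNA was listed at 0 in all 6 samples, which means that these values cannot check its silencing. Nothing in the labels says that the 3 samples of a group were grown on separate occasions. The paper's methods state 3 or more independent biologic replicates for every experiment and, for RNA-seq, cells cultured in triplicate. They do not say what kept these samples apart, and p-values then measure only the spread between these samples.

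In the RAS-ERK pathway, receptor tyrosine kinases load RAS with GTP, RAS activates RAF, RAF phosphorylates MEK, and MEK phosphorylates ERK. Active ERK turns on immediate early genes within minutes and, later, a set of genes that restrain the pathway. Dual-specificity phosphatases of the DUSP family remove phosphate from ERK, Sprouty proteins act between receptors and RAF, and SPRED proteins bring neurofibromin to the membrane to switch off RAS. ETV4 and ETV5 are PEA3-class ETS transcription factors that are held down by the repressor CIC until ERK inactivates it. Summed transcripts of such genes are often used to read how active the pathway is, although transcript levels do not measure ERK phosphorylation, which was not analysed here.

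Depth differed widely among the samples, from 5456103 reads on genes in vehicle replicate 3 to 64582582 in DOX replicate 1, with the other 4 between 16702078 and 20339583. A few small RNAs (the signal recognition particle RNAs RN7SL1 to RN7SL3, then RPPH1 and RN7SK) held 67.5% to 76.0% of the TPM in vehicle-treated samples and 76.0% to 82.6% in DOX-treated samples. TPM adds up to the same total in every sample, and the median log2 fold change of all tested genes (DOX over vehicle, on the log2(TPM + 1) scale) was -0.35. Each value is therefore given as TPM and also after median-of-ratios scaling, in which every sample is divided by 1 factor taken from all genes, and the median of all genes then lay at 0.02. The epithelial markers EPCAM, CDH1, KRT8, KRT18 and KRT19 were all present, at 5.11 to 146.5 TPM. Of markers of androgen-responsive prostate cells, KLK3 was listed at 0 in every sample and TMPRSS2 did not exceed 0.0366 TPM. Among the 7 markers of blood, fibroblast and endothelial cells, CD3E and DCN were listed at 0, PTPRC, PECAM1 and VWF stayed at or under 0.0531 TPM, COL1A1 ranged from 0.269 to 0.616 TPM and CD68 from 11.4 to 19.6 TPM.

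The promoter of DUSP6 is shown because it was the one member called lower on the TPM scale and because its start holds a repeated octamer of the kind that CIC binds. RefSeq promoter windows (GRCh38.p14, 250 bases before to 50 bases after a start) were found for 6 of the 10 genes, DUSP6, SPRY2, SPRY4, SPRED1, SPRED2 and PHLDA1, in 9 windows in all. The 120 bases just before the DUSP6 start lie outside the gene at chr12:89352502-89352621 and are printed along the minus strand, the strand of the gene, with the octamer in capitals.
DUSP6 promoter: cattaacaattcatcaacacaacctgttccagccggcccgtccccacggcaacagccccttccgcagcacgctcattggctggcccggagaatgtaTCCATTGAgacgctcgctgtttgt
The capitals read TCAATGGA on the opposite strand and begin 24 bases before the start. A second copy of the same 8 letters begins at base 2 of the transcript. TCAATGGA was found in 0.51% of 35116 windows and was present more than once in 1 of them, the DUSP6 window. The other forms searched on both strands were TGAATGAA (1.65% of windows), TGAATGGA (1.03%) and TCAATGAA (0.718%). They were in none of the 9 member windows and were present more than once in 65, 12 and 3 of all windows. Windows that mix forms were not counted, and any of the 4 forms was in 3.77% of all windows. An ETS motif, CCGGAAG (10.3% of windows), and a CRE, TGACGTCA (1.85%), were also in none of the 9 windows. The AP-1 motif TGANTCA (7.71% of windows) was in 1 of the 9, a window of SPRED2, at 6 bases before and at base 35 after the start. The motifs do not overlap each other in these windows, and a match describes letters and not a bound site.

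In vehicle-treated cells, the feedback genes spanned from about 1 to about 50 TPM. DUSP5 (49.0 ± 2.06 TPM, SD, n = 3) and PHLDA1 (47.0 ± 9.03) were highest, and their per-sample ranges overlapped. Next came SPRED2 (20.6 ± 3.85) and ETV5 (20.1 ± 3.34), which also overlapped each other and lay apart from both neighbours in the order. SPRED1 (11.9 ± 2.26), DUSP6 (11.0 ± 1.26) and SPRY2 (9.10 ± 1.20) formed the next run of overlapping neighbours. ETV4 (2.28 ± 0.460), SPRY4 (1.64 ± 0.394) and DUSP4 (1.41 ± 0.306) were lowest. All 10 are protein-coding genes, and in GENCODE on GRCh38 DUSP6 lies at chr12:89347235-89352501 and PHLDA1 at chr12:76025447-76031776, both on the minus strand. DUSP5 lies at chr10:110497907-110511533 and SPRED1 at chr15:38252836-38357249, on the plus strand, and ETV4 at chr17:43527844-43579620 and ETV5 at chr3:186046314-186110318, on the minus strand. Summed exonic lengths of the 10 genes in this annotation ran from 2535 bases for DUSP5 to 7750 bases for SPRED1. The weakest of the 10 rested on few reads in the shallow vehicle replicate 3, namely 40 for ETV4, 62 for SPRY4 and 70 for DUSP4. For ETV4 that gives a 95% Poisson interval of 28.6 to 54.5 reads, which covers counting error only. The other 7 genes had at least 183 reads in every sample.

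**Figure D1:**
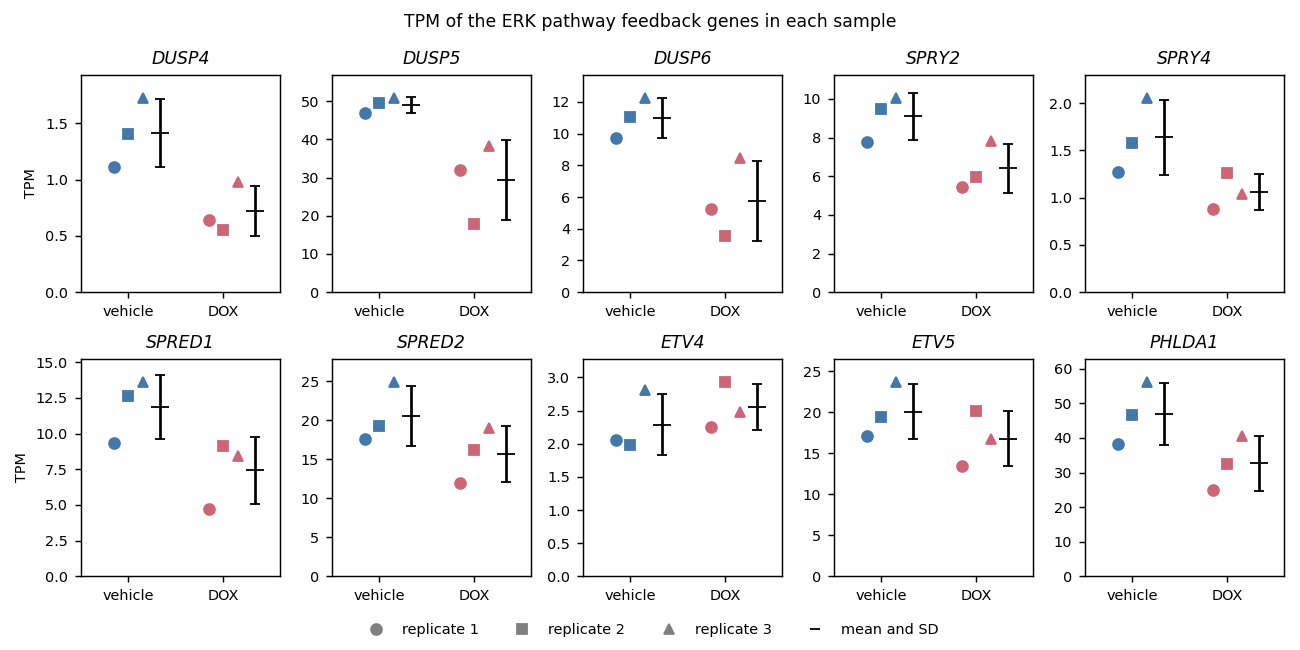
TPM of the 10 feedback genes (vertical axis, starting at 0) in each of 3 vehicle-treated (blue) and 3 DOX-treated (red) samples, with marker shapes for replicate numbers and black bars for mean and SD. For DUSP4, DUSP5, DUSP6, SPRY4 and SPRED1 every DOX sample lies below every vehicle sample, and DUSP5 in DOX replicate 2 stands at 17.8 TPM beside 32.0 and 38.1 in the other DOX samples.

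To ask whether DOX treatment was associated with a change of ERK output, the 10 genes were compared between groups by limma across all tested genes, and a gene was called at a Benjamini-Hochberg adjusted p-value under 0.05 with a fold change over 1.5. Of the 10 genes, 1 (DUSP6) was called lower and 0 were called higher. In such bulk samples, fewer cells with a transcript and less of it per cell cannot be told apart. Over all tested genes, 2.98% were called lower and 0.0257% higher. Without adjustment for multiple tests, 3 of the 10 (DUSP5, DUSP6 and SPRED1) passed 0.05 and the fold change in the lower direction and 0 in the higher. Of all tested genes, 19.0% did so in the lower and 0.12% in the higher direction. DUSP4 passed 0.05 (limma unadjusted p = 0.011) but not the fold change. The 1 added before log2 understates changes of a gene at its level. As a median, the log2 fold change of the 10 was -0.47 beside -0.35 for all genes. The 3 DOX values were all below the 3 vehicle values for 5 of the 10 genes, which holds for 30.7% of all tested genes. After median-of-ratios scaling, 0 of the 10 genes and 0 of all genes were called in either direction. Without adjustment, 0 of the 10 passed 0.05 and the fold change on the scaled values, while 133 of all genes (1.14%) did so downward and 136 (1.17%) upward. ETV4 passed 0.05 there (limma unadjusted p = 0.0061) but not the fold change, which the added 1 understates at its level. The median of the 10 was then -0.09 beside 0.02 for all genes.

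The 3 MAP kinase phosphatases had the lowest fold changes among the scaled values. DUSP6, a cytoplasmic phosphatase that is specific for ERK, was at 9.73, 11.0 and 12.3 TPM in the vehicle samples and at 5.26, 3.52 and 8.49 TPM in the DOX samples, here and below in the order of replicates 1, 2 and 3. All DOX values were below all vehicle values. It fell by 0.89 on the log2(TPM + 1) scale (SE 0.26, limma adjusted p = 0.048). Across 17 alternative fits the adjusted p of DUSP6 ranged from 0.00024 to 0.46, and it kept its call in 4 of them. After scaling, the DUSP6 values were 9.26, 9.95 and 8.68 in vehicle and 7.58, 3.50 and 9.12 in DOX. The groups then overlapped, because DOX replicate 3 stood within the vehicle range while DOX replicate 2 was far below every other sample. The scaled log2 fold change was -0.49 (SE 0.25, 95% confidence interval -1.06 to 0.08, limma adjusted p = 0.35), and it was -0.14 without DOX replicate 2. With GC content and length corrected in each sample, the fold change of DUSP6 was -0.56 (95% confidence interval -1.10 to -0.01, limma adjusted p = 0.43).

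DUSP5, a nuclear phosphatase that both inactivates ERK and holds it in the nucleus, was at 46.8, 49.4 and 50.8 TPM in vehicle and at 32.0, 17.8 and 38.1 TPM in DOX. The vehicle samples were close together and the DOX samples were spread, with DOX replicate 2 lowest. Its log2 fold change on the TPM scale was -0.79 (SE 0.28, limma adjusted p = 0.080), which did not pass, while with the replicate number as a block it did (limma adjusted p = 0.0014). After scaling, DUSP5 stood at 44.5, 44.5 and 36.0 in vehicle and at 46.1, 17.7 and 41.0 in DOX, so that 2 of the 3 DOX samples were inside or above the vehicle range. The scaled log2 fold change was -0.35 (95% confidence interval -1.01 to 0.30). Without DOX replicate 2 it was 0.07, so the direction of DUSP5 on this scale rested on that sample. With GC content and length corrected, its fold change was -0.63 (95% confidence interval -1.19 to -0.06, limma adjusted p = 0.42).

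DUSP4, a nuclear phosphatase that acts on ERK and on the stress kinases, was at 1.11, 1.40 and 1.72 TPM in vehicle and at 0.639, 0.548 and 0.976 TPM in DOX. The groups did not overlap on either scale. The log2 fold change was -0.49 on the TPM scale (SE 0.18, limma adjusted p = 0.090), a scale on which the added 1 understates changes of a gene at this level. After scaling, DUSP4 ranged from 1.06 to 1.26 in vehicle and stood at 0.920, 0.545 and 1.05 in DOX. The scaled log2 fold change was -0.26, and it was -0.13 without DOX replicate 2 and -0.21 with GC content and length corrected. The same 1 was added in these fits, so they understate the change as well, and the scaled mean of DUSP4 was 1.18 in vehicle and 0.838 in DOX. Over all tested genes, 9.22% had every scaled DOX value below every scaled vehicle value, and DUSP4 was the one member that did.

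The low values of DOX replicate 2 were looked at further, by a rule set after these values were seen. On the scaled values, DOX replicate 2 was at least 1.5-fold below each of the other 5 samples for 3 of the 10 members, DUSP4, DUSP5 and DUSP6. The same held for 1.54% of all tested genes. In each of the other 5 samples, 0 of the 10 members departed from the rest by this rule, with 0.146% to 1.52% of all genes doing so in the lower direction. DOX replicate 2 also held the lowest scaled value for 6 of the 10 members, beside 15.2% of all tested genes. By the same rule 1 of 7 tested relatives, the phosphatase DUSP1, and 3 of 9 other ERK outputs, EGR1, IER3 and TRIB1, were low in this sample, with 0 of 22 cascade genes and 0 of 11 other restraints. EGR1, an immediate early transcription factor, had a scaled value of 23.3 in DOX replicate 2 and of 90.9 to 119.9 in the other 5 samples. DUSP1, an early-induced phosphatase of stress kinases and ERK, was at 68.8 in DOX replicate 2 and at 107.8 to 135.6 elsewhere. IER3 was at 6.07 there against 9.88 to 14.9, and TRIB1 at 4.58 against 8.93 to 10.5. The depth of DOX replicate 2 (18922461 reads) and its share of small RNAs (76.0% of TPM) were within the range of the other samples. What sets this sample apart was not tested.

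**Figure D2:**
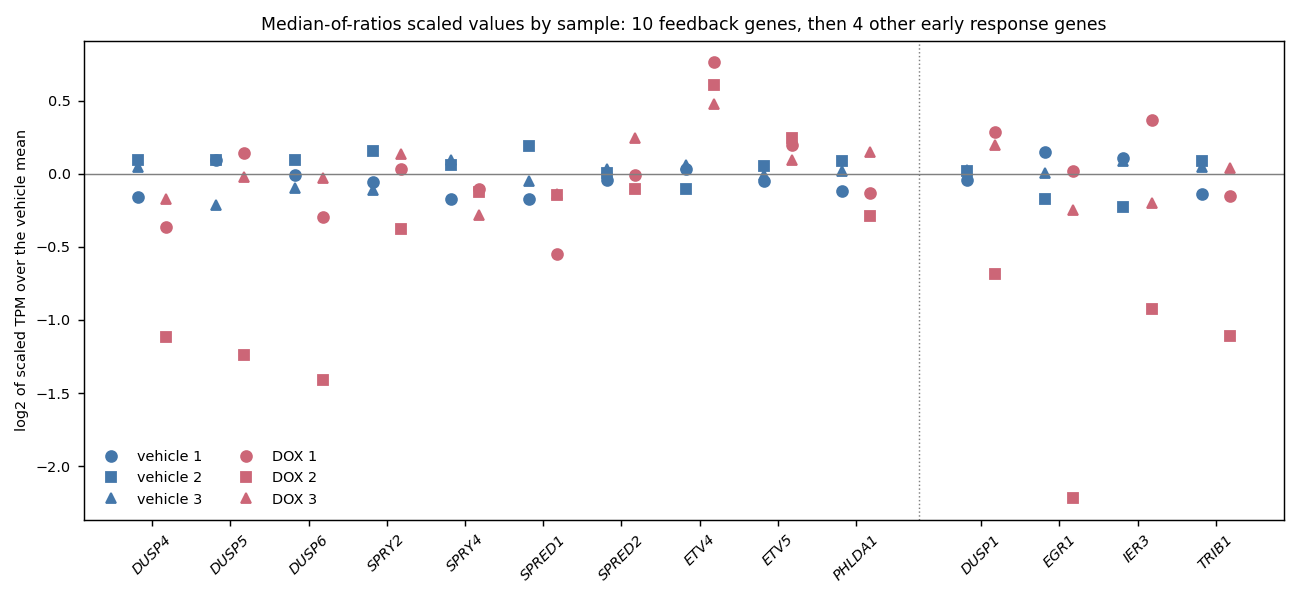
log2 of the median-of-ratios scaled value over the mean of the vehicle samples (vertical axis) for the 10 feedback genes and, right of the dotted line, DUSP1, EGR1, IER3 and TRIB1. Blue marks are vehicle samples, red marks are DOX samples, and shapes give the replicate number. DOX replicate 2 (red squares) lies below all other samples for DUSP4, DUSP5, DUSP6 and the 4 added genes, which were picked for being low in it. It also lies lowest, by less, for SPRY2, SPRED2 and PHLDA1. All 3 DOX samples lie above the vehicle samples for ETV4 and ETV5.

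The Sprouty genes lay close to the shift of all genes and passed the test on neither scale. SPRY2, which blocks receptor signaling to RAS and RAF, was at 7.75, 9.49 and 10.1 TPM in vehicle and at 5.45, 5.95 and 7.84 TPM in DOX. The groups overlapped by a narrow margin, between vehicle replicate 1 and DOX replicate 3. Its log2 fold change was -0.45 on the TPM scale (limma adjusted p = 0.19) and -0.06 after scaling (95% confidence interval -0.39 to 0.28). SPRY4, an inhibitor of the same family, was at 1.27, 1.58 and 2.06 TPM in vehicle and at 0.881, 1.26 and 1.04 TPM in DOX, with vehicle replicate 1 and DOX replicate 2 almost level. Its log2 fold changes were -0.35 (limma adjusted p = 0.20) and, scaled, -0.09 (95% confidence interval -0.37 to 0.18).

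The SPRED genes also passed the test on neither scale without a replicate block. SPRED1 was at 9.32, 12.7 and 13.6 TPM in vehicle and at 4.73, 9.09 and 8.42 TPM in DOX, and the groups did not overlap. The log2 fold change of SPRED1 was -0.64 on the TPM scale (SE 0.26, limma adjusted p = 0.11) and -0.24 after scaling (95% confidence interval -0.57 to 0.09). Its exons have the lowest GC content of the 10 genes, 36.5% beside a median of 47.0% over all tested genes. With a correction for GC content and length in each sample, the fold change of SPRED1 was 0.03 (95% confidence interval -0.17 to 0.23). SPRED2 was at 17.6, 19.3 and 24.9 TPM in vehicle and at 11.9, 16.2 and 19.0 TPM in DOX, with overlap. Its log2 fold change of -0.38 on the TPM scale (limma adjusted p = 0.31) became 0.04 after scaling (95% confidence interval -0.24 to 0.33).

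The PEA3 factors had positive fold changes once the samples were scaled, without passing the test. ETV4 was at 2.06, 1.98 and 2.81 TPM in vehicle and at 2.25, 2.93 and 2.48 TPM in DOX, and the groups overlapped. Scaled, ETV4 was at 1.96, 1.78 and 1.99 in vehicle and at 3.24, 2.91 and 2.66 in DOX, so that all DOX samples were above all vehicle samples. The log2 fold change of ETV4 was 0.12 on the TPM scale (SE 0.20, limma adjusted p = 0.68) and 0.43 after scaling (SE 0.13, 95% confidence interval 0.16 to 0.71, limma adjusted p = 0.28). The added 1 understates changes at this level, and the scaled mean of ETV4 was 1.91 in vehicle and 2.94 in DOX. ETV5 was at 17.1, 19.4 and 23.7 TPM in vehicle and at 13.4, 20.1 and 16.7 TPM in DOX. Scaled, it was at 16.3, 17.5 and 16.8 in vehicle and at 19.4, 20.01 and 17.99 in DOX, again without overlap and with DOX replicate 2 highest. Its log2 fold change of -0.25 on the TPM scale was 0.17 after scaling (95% confidence interval -0.08 to 0.43, limma adjusted p = 0.44). Every scaled DOX value lay above every scaled vehicle value for 2 of the 10 members and for 10.8% of all tested genes. The exons of ETV4 have the highest GC content of the 10 genes, 60.1%, and with the correction for GC content and length its fold change was 0.22 (95% confidence interval -0.02 to 0.47).

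PHLDA1, a pleckstrin homology-like protein whose transcript follows ERK activity, was at 38.2, 46.5 and 56.2 TPM in vehicle and at 24.9, 32.5 and 40.6 TPM in DOX. The groups overlapped between vehicle replicate 1 and DOX replicate 3. The log2 fold change was -0.52 on the TPM scale (limma adjusted p = 0.19) and -0.08 after scaling (95% confidence interval -0.39 to 0.23).

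On the TPM scale, samples with the same replicate number deviated from their group means together (r of 0.21 to 0.57 across genes, against -0.38 to 0.19 for samples with different numbers), and the comparison was repeated with the number as a block. On scaled values vehicle replicate 2 correlated with DOX replicate 3 (0.22) more than vehicle replicate 3 did (0.18), and after GC and length correction r was -0.0015 for number 2. With the block on the TPM scale, 3 of the 10 genes were called lower and 0 higher, beside 19.0% of all genes lower and 0.129% higher. These 3 were DUSP6 (limma adjusted p = 0.00024), DUSP5 (limma adjusted p = 0.0014) and SPRED1 (limma adjusted p = 0.0082). With the block on scaled values, 0 of the 10 and 0 of all genes were called. voom, limma's method for counts, was run on reads per gene recovered from the deposited values, with the block. It called 0 of the 10 lower and 1 higher (ETV4), beside 2.23% of all genes lower and 1.47% higher. The recovered reads of ETV4 were 125, 132 and 40 for vehicle and 821, 210 and 177 for DOX, before any correction for depth. In this fit the log2 fold change of ETV4 was 0.66 (SE 0.18, limma adjusted p = 0.035), and with GC content and length corrected it was 0.34 (limma adjusted p = 0.34), which did not pass. The fold changes of DUSP6, DUSP4 and DUSP5 were -0.58, -0.52 and -0.37 in voom with the block (limma adjusted p = 0.096, 0.11 and 0.26), and -0.61, -0.63 and -0.61 with GC content and length corrected as well (limma adjusted p = 0.19, 0.15 and 0.19). In voom with the block they were -0.78, -0.80 and -0.60 without the pair of replicate 1, -0.16, -0.20 and 0.11 without the pair of replicate 2, and -0.82, -0.60 and -0.62 without the pair of replicate 3. Of these, DUSP6 without the pair of replicate 3 was called (limma adjusted p = 0.039).

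**Figure D3:**
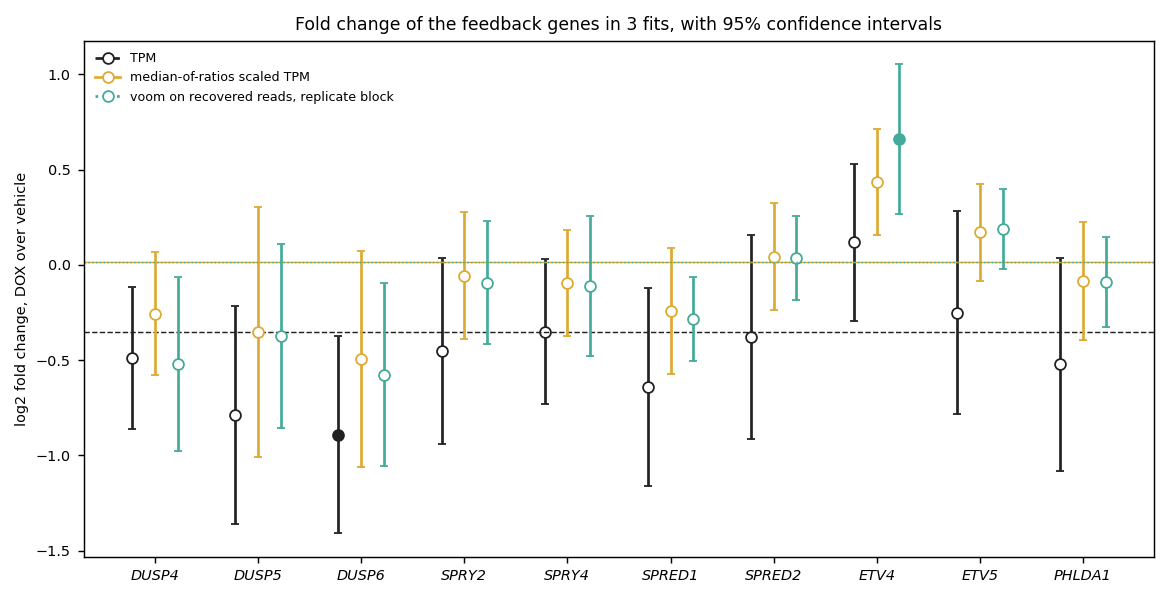
log2 fold change, DOX over vehicle (vertical axis), of each feedback gene in 3 fits, with 95% confidence intervals as bars and filled circles for called genes. The dashed line is the median of all genes on the TPM scale (-0.35) and the solid and dotted lines are the medians of the scaled and voom fits (both 0.02). DUSP6 is filled in the TPM fit and ETV4 in the voom fit.

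Other genes of the pathway were taken from 4 lists. Among 13 close relatives of the feedback genes, 7 were tested and 0 were called on the TPM scale. Their log2 fold changes ran from -0.53 for DUSP10, a phosphatase of JNK and p38, to 0.11 for PHLDA2, with a median of -0.30. The other 6 were under the minimum, DUSP2, DUSP8, DUSP9, SPRY1, SPRY3 and ETV1, and ETV1, the remaining PEA3 factor, was listed at 0 in all 6 samples. Scaled, PHLDA2 was at 11.6, 10.1 and 10.3 in vehicle and at 19.5, 13.1 and 15.4 in DOX. Its log2 fold change was 0.53 after scaling (limma adjusted p = 0.28) and 0.58 in voom with the block (limma adjusted p = 0.019), just under the fold change cut. With GC content and length corrected in voom it was 0.20 (limma adjusted p = 0.43). The paper lists PHLDA2 among genes raised in common by silencing MUC1-C and, in a separate experiment, by silencing XIST. The paper describes the XIST experiment as RNA-seq of the same cells and treatment as here. That listing therefore cannot be taken as independent of the values given here. Among 22 genes of the cascade itself, from adaptors to RAS, RAF, MEK and ERK, all were tested and 1 was called lower. This was SOS1, an exchange factor that loads RAS with GTP, at 19.8, 23.6 and 30.0 TPM in vehicle and 6.73, 18.1 and 11.5 TPM in DOX. SOS1 fell by 1.03 on the log2(TPM + 1) scale (limma adjusted p = 0.044), and its scaled log2 fold change was -0.62 (limma adjusted p = 0.28). In voom with the block SOS1 was called at -0.66 (limma adjusted p = 0.014). With GC content and length corrected as well, it was -0.29 (limma adjusted p = 0.18) and was not called. The lowest sample of SOS1 was DOX replicate 1. The cascade list had a median of -0.51 and a highest value of 0.07 for HRAS.

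Of 11 other restraints of the pathway, which include RAS GTPase-activating proteins and the ETS repressors, all were tested and 0 were called. The values ran from -0.93 for RASA2, a RAS GTPase-activating protein, to 0.12 for ERF, an ETS repressor that ERK removes from the nucleus. CIC, the repressor of ETV4 and ETV5, had a log2 fold change of -0.09 on the TPM scale and 0.29 after scaling, with neither called. Of 10 other ERK outputs, 9 were tested and 1, EGR1, was called lower. EGR1 was at 126.0, 106.8 and 153.1 TPM in vehicle and 76.0, 23.4 and 84.6 TPM in DOX, and fell by 1.24 on the log2(TPM + 1) scale (limma adjusted p = 0.039). Its scaled log2 fold change was -0.79 (limma adjusted p = 0.39). CCND1, the cyclin that ERK raises during the G1 phase, had a log2 fold change of -0.30 on the TPM scale and 0.14 after scaling, and its highest scaled value (68.1) was in DOX replicate 2. PLAUR, the urokinase receptor, was the highest of the outputs at -0.04. With the block on the TPM scale, 0 of 7 relatives, 10 of 22 cascade genes, 5 of 11 restraints and 3 of 9 outputs were called lower and 0 higher, beside 19.0% of all genes called lower in this fit. On scaled values 0 genes of any of these lists were called, with or without the block, and the list medians were 0.01, -0.08, -0.17 and 0.01.

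**Figure D4:**
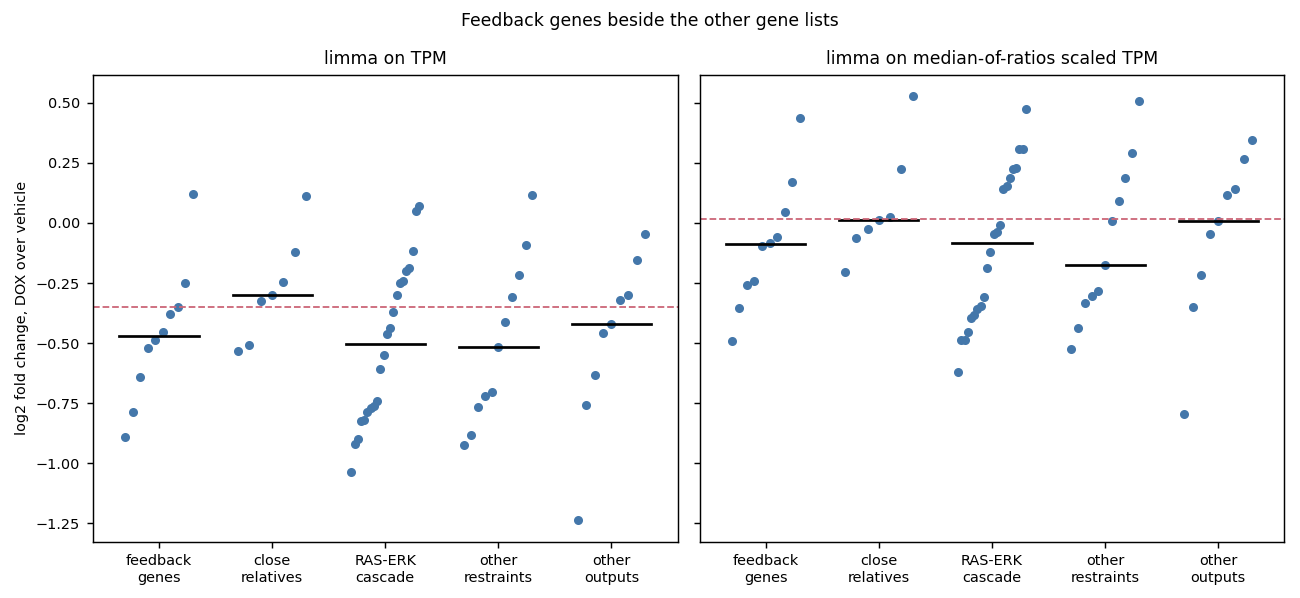
log2 fold change, DOX over vehicle (vertical axis), of every tested gene of the feedback list and of the 4 other lists, by limma on TPM (left) and on median-of-ratios scaled TPM (right). Points are genes, black bars are list medians and the dashed line is the median of all tested genes. The feedback genes have a median of -0.47 on the left and -0.09 on the right.

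Some of these genes share exonic bases with a neighbour in the GENCODE annotation. DUSP6 shares 1105 bases and PHLDA1 shares 553 bases with long non-coding RNAs on the opposite strand, ETV4 shares 68 bases with DHX8 on the opposite strand, and ETV5 shares 164 bases with DGKG on the same strand. The strand setting of the counting is not given in the sources used here, so reads from these stretches could have been counted for either gene.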

How the data were processed

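RNA was sequenced from 3 vehicle-treated and 3 DOX-treated samples of DU-145/tet-XISTshRNA cells, grouped by their labels. Per the labels, libraries were made with a stranded mRNA kit, and STAR, DESeq2 and GRCh38 are named in the submitters' processing notes, without versions. The labels name a column kit for RNA isolation and the paper's methods name Trizol. The counting tool is not given in the sources used here. The authors deposited TPM per gene symbol and a DESeq2 table. The fold changes, p-values and scores of that table were not used. From it only the authors' mean of normalized counts over all samples, a pooled value, was taken to recover reads.

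Groups were compared on log2(TPM + 1) by limma 3.58.1 in R 4.3.3, with a variance trend and no block, over genes with a mean of at least 1 TPM. This minimum and all fits used the whole table. Alternatives were median-of-ratios scaling, a replicate block, a spline correction (5 degrees of freedom) for GC content and exonic length, a pseudocount of 0.1, no minimum, no trend, each sample left out, and voom on recovered reads. GC content and length came from GENCODE release 44 (GRCh38), matched for 97.4% of tested genes and for all 10 members. Of 38650 recovered values between 1 and 100 reads, 98.5% lay within 0.1 of a whole read, against 20.0% by chance, and of 24595 values between 101 and 500 reads, 68.7% did. The recovery and the fits were also tested on simulated data.

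The numbers were taken to pair the samples from the data alone. Across genes, the departures of samples 1, 2 and 3 of each group from their group's mean gave r = 0.57, 0.24 and 0.21 between same-numbered samples in TPM. With GC content and length corrected, r was 0.18, -0.0015 and 0.17.

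The 10 genes and the other lists were chosen with earlier results of these data known. All 10 were named with their values. Of the other lists, genes called on the TPM scale and the lowest and highest of each list were named. DUSP1, IER3, TRIB1, CCND1 and CIC were named after their values were seen. Some genes of the lists are not reported here. Python 3.11.15, pandas 2.3.3, SciPy 1.17.1 and matplotlib 3.10.9 were used.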

Additional observations from a re-analysis of the deposited data

How the results depend on the processing

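On the TPM scale 1 feedback gene (DUSP6) was called lower and 0 higher, with 348 of all genes lower and 3 higher. The replicate block gave 3 feedback genes lower, 2217 of all genes lower and 15 higher. Median-of-ratios scaling and the GC and length correction, each with and without the replicate block, gave 0 feedback genes and 0 of all genes in both directions. A pseudocount of 0.1 gave 0 feedback genes and 46 of all genes lower, no minimum gave 0 and 0 with 0 higher, and no variance trend gave 0 and 8 with 0 higher. voom gave 0 feedback genes lower, with 1 of all genes lower and 0 higher. voom with the replicate block gave 0 feedback genes lower and 1 higher (ETV4), with 260 of all genes lower and 171 higher. With GC and length corrected as well, a fit chosen after seeing the data, it gave 0 feedback genes, and 5 of all genes lower and 0 higher. Leaving out each sample in turn gave 0 to 1 feedback gene lower, 0 (without vehicle replicate 3) to 2363 (without DOX replicate 2) of all genes lower and 0 to 25 (without vehicle replicate 1) higher. DUSP6 lost its call without vehicle replicate 2, vehicle replicate 3 or DOX replicate 2, and SPRED1 was called without DOX replicate 2 (limma adjusted p = 0.031). The causes of these changes were not tested.

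Of 260 fold changes of single feedback genes under an alternative, 24 turned their direction. SPRED1 (-0.64) was 0.027 with GC and length corrected, with or without the replicate block, and 0.055 in voom with both. SPRED2 (-0.38) was 0.044 with scaling, with or without the replicate block, 0.047 in voom and 0.036 in voom with the block. ETV5 (-0.25) was 0.17 with scaling and 0.095 with GC and length corrected, each with or without the replicate block, and 0.18, 0.19 and 0.17 in voom, in voom with the block and in voom with both. PHLDA1 (-0.52) was 0.030 in voom with both. The rest came from leaving out samples of the scaled or voom fits, which was chosen after seeing the data. Scaled fold changes ranged from -0.61 to 0.069 for DUSP5, -0.15 to 0.081 for SPRY2, -0.048 to 0.12 for SPRED2 and -0.20 to 0.015 for PHLDA1. With a pair left out of voom with the block, the ranges were -0.62 to 0.11 for DUSP5, -0.21 to 0.15 for SPRY2, -0.033 to 0.11 for SPRED2 and -0.20 to 0.058 for PHLDA1, and ETV4 stayed at 0.61 to 0.72 but was called only without the pair of replicate 2, while DUSP6 gained a call without the pair of replicate 3 (limma adjusted p = 0.039). Depth limited DUSP4, SPRY4 and ETV4 most, whose counting error (the Poisson standard error) in vehicle replicate 3 was 12.0%, 12.7% and 15.8%. This is not a limit of detection, and differences larger than that could also be hidden by counting in that sample.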
